A study of Mus musculus with 15 samples.

Results

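The cells described here are the 729 barcodes of the Atg7-deleted single-cell library with the most RNA of the chemokine genes Ccl3 and Ccl4, of 7298 eligible barcodes and 9840 barcodes in that library. They were chosen by the measured values themselves. Eligible barcodes had at least 500 detected genes, at most 10% of UMIs (unique molecular identifiers, each counting 1 captured RNA molecule) from mitochondrial genes and at least 2000 UMIs, and the selected cells are the top 10% of them by summed Ccl3 and Ccl4 UMIs per 10000 UMIs. The other 6569 eligible cells of the same library served for comparison, and both ranking genes were left out of the gene comparisons, the lists and the totals. Values of the score itself describe the selection and carry no test.

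The library came from C57BL/6 mice of genotype ATG7FF;Cx3cr1CreER (cKO), and a control library came from C57BL/6 mice of genotype ATG7FF, which carry the same floxed Atg7 alleles and no Cre. Tamoxifen (1.5 mg) was given to both groups when the mice were 2 months old, and cells were taken 6 months later, at 8 months. Microglia were enriched from forebrain on Percoll, sorted as CD11b-high and CD45-low and loaded on the 10x Genomics 3' v3 platform. Cells of 4 cKO or 3 control forebrains were pooled, so each genotype is 1 library and no cell can be assigned to a mouse. Cx3cr1CreER is an inducible Cre at the Cx3cr1 locus, which acts in every cell that expresses Cx3cr1 at the time of tamoxifen, border macrophages included. The label "Atg7-deleted" rests on the genotype: 3' tags count the end of the Atg7 transcript and do not check the deletion.

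CCL3 and CCL4 (macrophage inflammatory proteins 1α and 1β) are small secreted chemokines that attract leukocytes through G protein-coupled receptors. In macrophages and microglia their genes are induced quickly, through NF-kB and AP-1 factors among others, by pattern recognition, by injury, and by the handling of tissue during cell isolation. Microglia with high Ccl3 and Ccl4 have been described in the aged and injured brain, often beside other chemokines and TNF.

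The score that selected the cells had no gap at its cut-off. The last selected cell stood at 7.90 and the first cell left out at 7.89 UMIs per 10000, and 173 selected and 308 other cells lay within 1 UMI of the boundary. A percentile cut on a score of sparse counts takes a range of cells, and the score alone does not say whether a distinct type lies within it. Their median score was 13.8, with quartiles of 10.1 and 21.3 and a highest value of 276, and they held 64.9% of all Ccl3 and Ccl4 UMIs of the eligible cells. No UMI of either gene was found in 4396 eligible cells (60.2%), while 2173 of the other cells held at least 1.

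**Figure D1:**
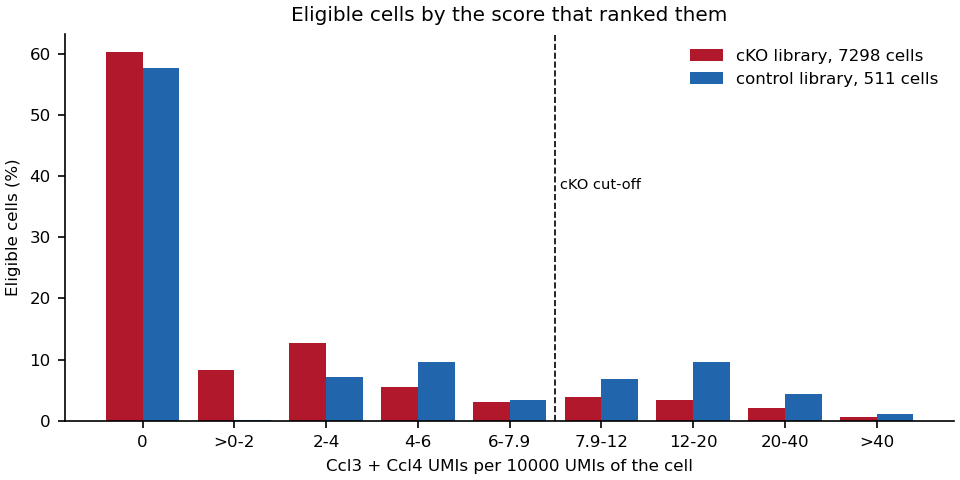
Share of eligible cells (vertical axis, %) by summed Ccl3 and Ccl4 UMIs per 10000 UMIs (horizontal axis, unequal bins) in the cKO library (red) and the control library (blue), with the cKO cut-off as a dashed line. The cKO cells fall off without a gap at the cut-off, and 60.2% of them stand at 0.

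The selected cells were microglia by their markers. All 12 microglia markers were measured in them, with a summed level of 40415 CPM (UMIs of a gene or list scaled to a total of 1000000 UMIs) against 41349 in the other cells, a ratio of 0.977. P2ry12, the purinergic receptor of resting microglia, stood at 3275 CPM and Tmem119 at 1152 CPM. Summed markers of border macrophages stood at 240 against 234 CPM, of neutrophils at 197 against 195, of monocytes at 11.1 against 11.0, of B cells at 362 against 322, and of T and NK cells at 2.64 against 1.11, with 10 of 12 T and NK markers at 0 UMIs.

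Depth and RNA quality were close in both groups of cells. The selected cells had a median of 4829 UMIs and 2138 genes against 4897 and 2196 in the other cells, with 1.08% against 0.956% mitochondrial UMIs. Cells above 2 times the median UMI count made up 3.98% against 3.32%, and no doublet caller was run, so doublets remain. In all, 3786953 UMIs were summed over the selected and 34366833 over the other cells. The control library was shallower, with 511 eligible of 6633 barcodes at a median of 2423 UMIs. The libraries shared 22 barcodes, of which 0 were eligible in both.

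The first comparison asked which other genes were high in the same cells. Of 6812 genes measured (at least 20 CPM in either group), 37 stood at least 1.5-fold higher in the selected cells (0.543%). A further 8 stood at least 1.5-fold lower (0.117%), and 90.7% lay within 1.2-fold. A sparse gene can reach 20 CPM only in the group where it is high, so the limit itself favours such genes. Higher genes below 20 CPM in the other cells included Cxcl10, Cox6a2, Cck, Creb5, Ifit3, Isg15, Ifitm3, Csf1 and Cst7. The rest of them were Rilpl2, Gm10802, A930007I19Rik, Haao, Gm47863, Oscp1 and Rcan1. Among the 37 were other chemokines (Cxcl10, Ccl12, Ccl2, Ccl6, Ccl9), the inflammatory cytokine gene Tnf and the growth factor gene Csf1, interferon-induced genes (Ifit3, Isg15), and genes of disease-associated microglia (Apoe, Cst7). Microglial identity genes such as P2ry12 and Cx3cr1 stood slightly below the other cells. With 1 library there is no replicate and no test: ratios are given with exact 95% intervals that cover counting error only. The median log2 ratio over all genes measured was -0.01, and 46.9% of genes lay above 1.

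Some of these genes owed much of their excess to a handful of cells. For each gene, the ratio was therefore also taken without the 5 selected cells that held most of its UMIs and without the same share of the other cells, which is 45 cells. On this setting 44 genes stood 1.5-fold higher, and 34 of the 37 were among them. The exceptions were Isg15 (1.40), Marcksl1 (1.37) and Rcan1 (1.33).

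**Figure D2:**
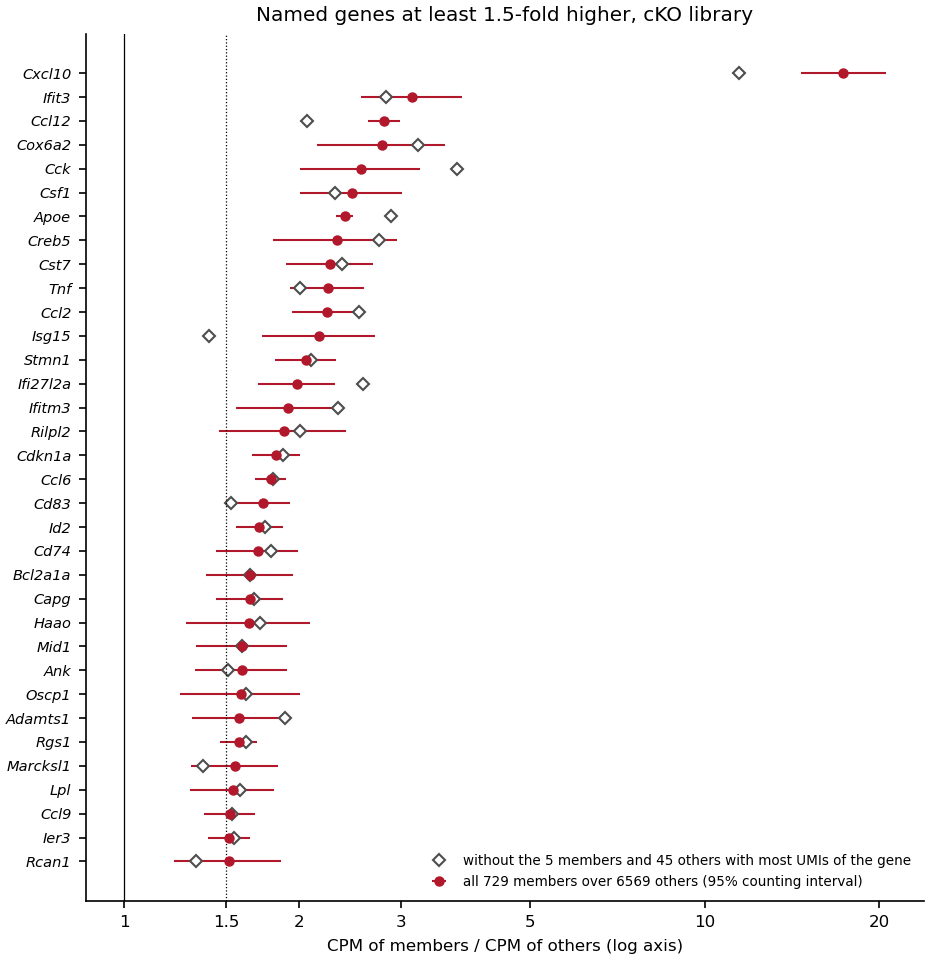
Ratio of CPM in the 729 selected cells over the 6569 other cells (horizontal log axis) for the named genes at least 1.5-fold higher, with 95% counting intervals (red) and the ratio without the 5 selected and 45 other cells that hold most UMIs of the gene (open diamonds). Cxcl10 stands alone at 17.3, the diamonds of Isg15, Marcksl1 and Rcan1 fall below the dotted line at 1.5, and those of the other genes stay above it.

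The other chemokine genes had the highest median and summed ratio of the 21 gene lists. All 9 measured of 22 chemokine genes stood above 1 and 5 passed 1.5-fold, with a median log2 ratio of 0.61, against -0.01 over all genes. Summed, they stood at 1221 CPM in the selected and 651 CPM in the other cells, a ratio of 1.88 (1.82 to 1.94). Ccl12 (MCP-5, a ligand of CCR2; chromosome 11, 82101845 to 82103400, GRCm38) stood at 337 against 120 CPM, a ratio of 2.81 (2.63 to 2.99), from 1275 and 4122 UMIs. Removal of the 5 and 45 cells richest in Ccl12 lowered it to 2.07 (1.90 to 2.24). Ccl2 (MCP-1, which draws in monocytes through CCR2; chromosome 11, 82035571 to 82037453) stood at 68.7 against 30.7 CPM, a ratio of 2.24 (1.95 to 2.56).

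Ccl6 and Ccl9, a pair of mouse chemokine genes that lie near each other on chromosome 11 and whose products bind CCR1, were the most evenly spread over cells of the 5. Ccl6 stood at 335 against 187 CPM, a ratio of 1.79 (1.68 to 1.90), and its 5 richest cells held 9.63% of its UMIs in the selected cells. Ccl9 stood at 117 against 76.9 CPM, a ratio of 1.52 (1.37 to 1.68). Chemokine genes closer to 1 were Cxcl16 at 1.26, Ccl25 at 1.16, Ccl24 at 1.03 and Cklf at 1.02.

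Cxcl10, the interferon-inducible ligand of CXCR3, had the highest ratio of the genes measured, and nearly all of its RNA lay in 5 cells. It stood at 109 against 6.31 CPM, a ratio of 17.3 (14.7 to 20.5), and 5 of the 729 cells held 385 of its 414 UMIs (93.0%), with 267, 70, 23, 16 and 9 UMIs each. These cells ranked 4, 711, 68, 43 and 44 by the score that selected them. They also held 437 of the 1275 Ccl12 UMIs, 72 of the 135 Ifit3 UMIs and 53 of the 99 Isg15 UMIs, while their share of all UMIs of the selected cells was 1.05%. Each of them held 5 to 32 UMIs of P2ry12 and 6 to 22 of Tmem119, and their summed levels were 1738 and 1335 CPM, against 3275 and 1152 CPM over all selected cells. Without these 5 cells the chemokine list kept 9 of 9 genes above 1 and 4 past 1.5-fold, with a median log2 ratio of 0.29 and a summed ratio of 1.53.

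Promoter windows of the genes that stood higher were searched for 3 motifs. RefSeq windows (GRCm38.p6, the 250 bases before each start) matched 27 of the 37 genes by symbol (Ccl2 and Cd83 were not among them), and both strands were searched for the kappaB motif, for the AP-1 motif TGANTCA and for the core of the interferon-stimulated response element (ISRE), which is GAAA, any 2 bases and GAAA again. A kappaB match was present in 4 of the 27 genes (Cxcl10, Csf1, Ccl9 and Ier3), which is 14.8%, against 5.48% of the 5461 measured genes with a window and 3.90% of all 32851 windows. An AP-1 match was present in 7 of the 27 (25.9%), against 4.91% of measured genes and 6.75% of all windows. The interferon element core was present in 3 (Cxcl10, Ifit3 and Isg15; 11.1%), against 3.22% of measured genes and 2.98% of all windows. A match is a run of letters and not a bound site, and 27 genes are few. The stretches of the 4 genes with a kappaB match are printed because they hold these letters at a chemokine, a growth factor and an early response gene, with the matches in capitals. They lie at chr5:92348947-92349112 (minus strand, Cxcl10), chr11:83578652-83578699 (minus, Ccl9), chr3:107760604-107760633 (minus, Csf1) and chr17:35821611-35821640 (plus, Ier3).
Cxcl10: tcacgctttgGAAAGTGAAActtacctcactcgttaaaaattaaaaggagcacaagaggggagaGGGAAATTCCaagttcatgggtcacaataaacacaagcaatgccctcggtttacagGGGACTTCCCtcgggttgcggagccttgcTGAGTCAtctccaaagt
Ccl9: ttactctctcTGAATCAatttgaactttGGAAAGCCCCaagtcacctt
Csf1: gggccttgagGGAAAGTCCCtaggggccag
Ier3: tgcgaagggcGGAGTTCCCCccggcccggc
In the Cxcl10 stretch the interferon element core comes first, 213 to 204 bases before the start, followed by kappaB matches at 159 to 150 and 103 to 94 and an AP-1 match at 74 to 68. The Ccl9 stretch holds an AP-1 match at 53 to 47 and a kappaB match at 35 to 26.

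Of 15 chemokine receptor genes only 3 were measured, 1 of them above 1 and 2 below. Of the 3, 0 passed 1.5-fold, beside 0.543% of all genes measured, so they are too few to compare with the ligands. Ccr1, a receptor gene for several CC chemokines, had 6 UMIs in the selected and 122 in the other cells and was below the limit for measured genes. The decoy-like receptor gene Ccrl2, which binds chemerin, stood at 51.5 against 35.8 CPM, a ratio of 1.44 (1.23 to 1.67), and the fractalkine receptor gene Cx3cr1 at 2514 against 2851 CPM, a ratio of 0.882 (0.863 to 0.901).

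Among cytokine genes 2 of 7 measured members passed 1.5-fold, against 0.543% of all genes measured. Above 1 were 4 of the 7, against 46.9% of all genes, so the list was not broadly higher. Tnf (chromosome 17, 35199381 to 35202007) stood at 60.2 against 26.9 CPM, a ratio of 2.24 (1.93 to 2.59), and at 2.01 (1.69 to 2.38) after removal of the 5 and 45 richest cells. Csf1, the growth factor that maintains microglia through CSF1R, stood at 32.7 against 13.3 CPM, a ratio of 2.47 (2.01 to 3.02). It reached 20 CPM in the selected cells only. The interleukin gene Il1a stood at 123 against 91.1 CPM, a ratio of 1.35 (1.23 to 1.49), while Il16, Il18 and Tgfb1 stood at 0.91, 0.94 and 0.99. Il1b was below the limit at 10.3 CPM, and 5 cells held 74.4% of its 39 UMIs.

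The list of NF-kB regulators and targets stood modestly higher. Of 28 measured members 20 were above 1, against 46.9% of all genes measured, and 3 passed 1.5-fold, against 0.543%. The median log2 ratio was 0.12 and the summed ratio 1.18 (1.16 to 1.21). The 3 past 1.5-fold were Cd83 (a surface protein of activated myeloid cells; 101 against 58.1 CPM, ratio 1.73, 1.55 to 1.93), Id2 (a helix-loop-helix inhibitor; 141 against 82.3 CPM, ratio 1.71, 1.56 to 1.88) and Ier3 (an early response survival gene; 171 against 113 CPM, ratio 1.52, 1.39 to 1.65). Nfkbiz, which encodes IκBζ, followed at 1.47 (1.30 to 1.66), and Nfkbia, the classical feedback inhibitor, at 1.22 (1.15 to 1.30). The genes of the NF-kB subunits lay between 0.98 for Nfkb1 and 1.25 for Nfkb2, with Rel at 1.01, Rela at 1.05 and Relb at 1.02.

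Immediate early genes, which mark recent stimulation and also respond to cell isolation, stood slightly higher. In the AP-1 and Egr list 8 of 9 measured genes were above 1, against 46.9% of all genes measured. The median log2 ratio was 0.12 and the summed ratio of the list 1.10 (1.09 to 1.12). Of the 9, 0 passed 1.5-fold, beside 0.543% of all genes measured, so that count says little. Fos stood at 372 against 344 CPM, a ratio of 1.08 (1.02 to 1.14), Jun at 2764 against 2499 CPM, a ratio of 1.11 (1.08 to 1.13), and Egr1 at 475 against 426 CPM, a ratio of 1.12 (1.06 to 1.17). Atf3, a stress-induced member of the family, was the furthest from 1 at 87.4 against 58.4 CPM, just under the 1.5-fold limit (1.33 to 1.68). Among 20 other early response genes 17 were above 1 and 1 passed the limit, Rgs1, a regulator of G protein signalling, at 224 against 142 CPM (ratio 1.58, 1.46 to 1.70). Their median log2 ratio was 0.17 and the summed ratio of the list 1.10 (1.09 to 1.11). Of the selected cells 79 (10.8%) were also in the top 10% of eligible cells by an early response score, against 9.89% of the other cells.

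Genes of disease-associated microglia, a state seen around amyloid plaques and in aged brain, stood higher in the selected cells. Of 21 measured genes 19 were above 1 and 6 passed 1.5-fold (Apoe, Cst7, Lpl, Csf1, Ccl6 and Ank), with a median log2 ratio of 0.28. Cst7 and Csf1 reached 20 CPM in the selected cells only. Cst7, a cystatin-type protease inhibitor, stood at 44.9 against 19.8 CPM, a ratio of 2.26 (1.90 to 2.68). Lpl, which releases fatty acids from lipoproteins, stood at 44.9 against 29.2 CPM, a ratio of 1.54 (1.30 to 1.81). The abundant members of the list moved less, with Cd9 at 1.21, Ctsd at 1.13, Trem2 at 1.04 and Tyrobp at 1.03.

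Apoe, the lipid carrier, stood at 1129 against 471 CPM, a ratio of 2.40 (2.32 to 2.48), from 4275 and 16174 UMIs. The 5 richest cells held 34.2% of its UMIs in the selected cells, and without them and the 45 richest other cells the ratio was 2.88 (2.76 to 3.00). Of the selected cells 108 (14.8%) were also in the top 10% by Apoe, against 9.45% of the others. Among cells outside that top 10%, Ccl12 had a ratio of 2.38 (2.21 to 2.56) and Cst7 one of 1.90 (1.53 to 2.35).

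Overlap with the other high-scoring groups was uneven. The largest was with the top 10% by summed Cst7, Ccl6 and Lpl, which held 139 of the selected cells (19.1%, Clopper-Pearson interval 16.3 to 22.1%) and 8.98% of the others. The top 10% by Cdkn1a, the cell-cycle inhibitor p21, held 107 (14.7%) against 9.47%, and Cdkn1a itself stood at 137 against 74.6 CPM, a ratio of 1.83 (1.66 to 2.01). The top 10% by lysozyme gene Lyz2 held 72 (9.88%) against 10.0%, and Lyz2 stood at 1264 against 1277 CPM. At least 1 of the 6 groups compared held 55.7% of the selected and 44.5% of the other cells.

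Interferon-induced genes stood higher, with much of their RNA in few cells. Of 13 measured members 10 were above 1 and 4 passed 1.5-fold (Ifit3, Isg15, Ifitm3 and Ifi27l2a), with a median log2 ratio of 0.18. Of these 4, only Ifi27l2a reached 20 CPM in the other cells as well. Ifit3 stood at 35.6 against 11.4 CPM, a ratio of 3.13 (2.56 to 3.82), and 5 cells held 65.9% of its UMIs. Without these and the 45 richest other cells it stood at 2.82 (1.98 to 3.95). Without the 5 cells richest in Cxcl10, 2 of 13 passed 1.5-fold and the median log2 ratio was 0.03. The top 10% by interferon score held 96 selected cells (13.2%) and 9.64% of the others. Outside it, Ccl12 stood at 210 against 102 CPM, a ratio of 2.05 (1.89 to 2.23), and Tnf at 58.2 against 26.3 CPM, a ratio of 2.22 (1.88 to 2.60).

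Genes of resting microglia stood slightly and broadly lower. Of 26 measured homeostatic genes 3 were above 1 and 0 were 1.5-fold lower, with a median log2 ratio of -0.10. P2ry12 stood at 3275 against 3563 CPM, a ratio of 0.919 (0.902 to 0.936), Tmem119 at 0.955 (0.926 to 0.986), and Sall1, a transcription factor of microglial identity, at 329 against 379 CPM, a ratio of 0.868 (0.818 to 0.920). The genes lay within a narrow band, from 0.87 for Sall1 to 1.02 for Mef2c.

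Lists of stress, clearance and metabolism moved by different amounts. Autophagy genes had 14 of 29 measured members above 1 and a median log2 ratio of -0.03, with Atg7 at 18.2 against 17.2 CPM, below the limit for measured genes, and the cargo receptor gene Sqstm1 (p62) at 159 against 153 CPM, a ratio of 1.04 (0.952 to 1.13). Lysosomal genes had 28 of 37 above 1 and a median of 0.07. Endoplasmic reticulum chaperones had 16 of 20 above 1 and a median of 0.05, with Hspa5 (BiP) at a ratio of 1.12 (1.05 to 1.19), and NRF2 targets 12 of 17 and a median of 0.05. In each of these 4 lists 0 genes passed 1.5-fold, beside 0.543% of all genes measured. Glycolysis and hypoxia genes had 12 of 16 above 1 and a median of 0.19, again with 0 past 1.5-fold, and the glycolytic enzyme gene Tpi1 at 149 against 105 CPM was the furthest from 1 at 1.42 (1.30 to 1.55). Summed, autophagy genes had a ratio of 0.977, lysosomal genes 1.04 and endoplasmic reticulum chaperones 1.05. NRF2 targets (1.13 to 1.16) and glycolysis and hypoxia genes (1.12 to 1.16) each stood at 1.14, as did the genes of disease-associated microglia.

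**Figure D3:**
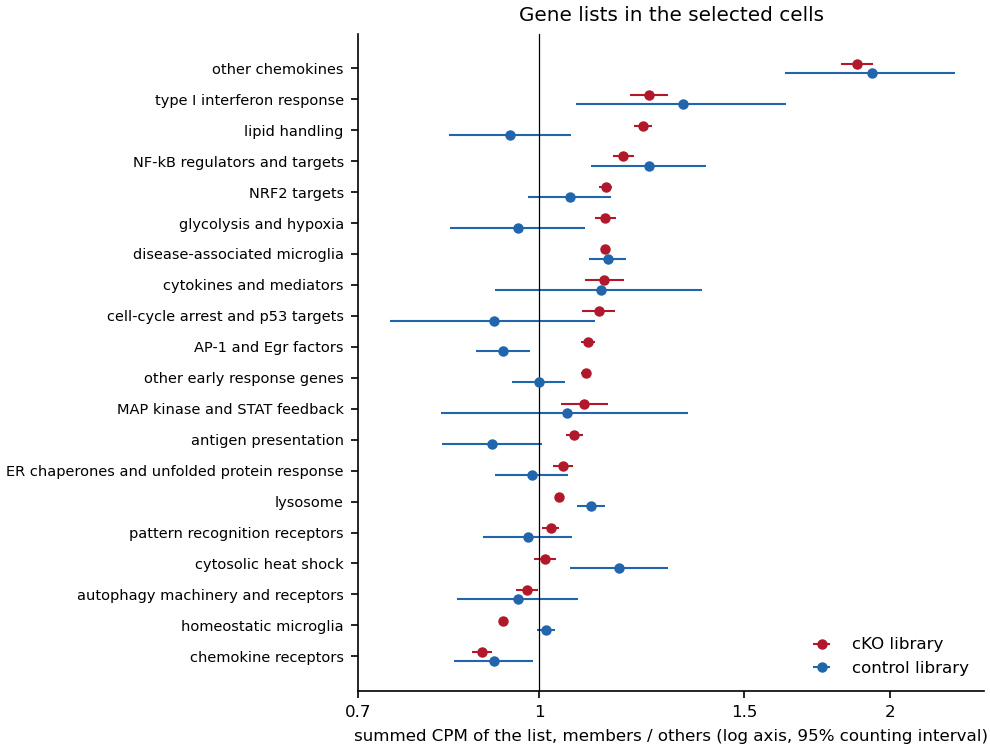
Ratio of the summed CPM of each gene list, selected cells over other cells (horizontal log axis), in the cKO library (red) and the control library (blue) with 95% counting intervals. Other chemokines stand at 1.88 and 1.93, above every other list shown, and AP-1 and Egr factors stand above 1 in the cKO library and below it in the control library.

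Genes outside these lists also stood higher in the selected cells. Cox6a2, a muscle-type subunit of cytochrome c oxidase, stood at 21.9 against 7.89 CPM, a ratio of 2.78 (2.15 to 3.57). Creb5, a CREB-family factor, stood at 22.4 against 9.66 CPM, a ratio of 2.32 (1.81 to 2.96). Stmn1, the microtubule regulator stathmin, stood at 89.0 against 43.3 CPM, a ratio of 2.06 (1.82 to 2.32), with 36.2% of its UMIs in 5 cells. It stood at 117 CPM in the selected cells with lower scores and at 59.7 CPM in those with higher scores, beside 65.3 CPM just below the cut-off. The neuropeptide gene Cck stood at 24.3 against 9.49 CPM (2.56, 2.01 to 3.24), with 52.2% of its UMIs in 5 cells. It stood at 40.4 CPM in the selected cells with lower scores and at 7.54 CPM in those with higher scores, and its ratio turned to 0.677 with the top 5% of cells selected. Capg, an actin-capping protein gene, reached 1.65 (1.44 to 1.88). Bcl2a1a, an NF-kB-induced survival gene, also stood at 1.65, but it has near-identical copies among which reads can be divided, so its value is uncertain.

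The 8 genes at least 1.5-fold lower were sparse, or came from few cells. Ttr, the transthyretin gene of choroid plexus, stood at 39.1 against 410 CPM, and Enpp2, also high in choroid plexus, at 3.70 against 22.8 CPM. Of the 14075 Ttr UMIs of the other cells 10101 lay in 5 cells, and of the 782 Enpp2 UMIs 593 lay in 5 cells. Without the 45 other and 5 selected cells richest in Ttr its ratio was 0.936 (0.662 to 1.29). The other 6 genes (Etaa1, Zfp809, Sec23ip, Cdc42bpa, Acvr2a and Cep250) had ratios of 0.626 to 0.663, at 13.2 to 28.5 CPM in the selected cells. Of the 8, only Ttr and Cep250 reached 20 CPM in the selected cells.

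The selected cells differed among themselves by score, and genes varied along it in different ways. Eligible cells were divided into those without a UMI of either gene, the remaining other cells in 3 groups of rising score, and the selected cells in a lower (365 cells) and an upper (364 cells) group. Ccl12 stood at 110, 118, 163 and 139 CPM in the groups below the cut-off, then at 201 and 478 CPM in the selected cells. Ccl2 stood at 27.3 to 42.4 CPM below the cut-off, at 37.3 in the lower and at 101 CPM in the upper group, so its excess lay in the cells with the highest scores. Tnf stood at 23.8 to 36.5 CPM below the cut-off and at 44.6 and 76.4 CPM above it, and Csf1 at 10.2 to 14.4 CPM and then 24.4 and 41.4 CPM.

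Apoe and Cdkn1a had another course: they were already high in the cells just below the cut-off. Apoe stood at 343 CPM in cells without a UMI, at 494, 627 and 1041 CPM in the 3 further groups, and at 1281 and 970 CPM in the lower and upper selected cells. Cdkn1a stood at 65.2 CPM without a UMI, at 121 CPM in the third group below the cut-off, and at 137 and 136 CPM above it. P2ry12 was lower in small steps, from 3615 CPM without a UMI to 3383 CPM just below the cut-off and 3287 and 3262 CPM in the selected cells. Fos stood at 348 CPM without a UMI, at 313 to 385 CPM in the next 3 groups, and at 338 and 406 CPM in the selected cells. These groups also differ in depth, with a median of 5810 UMIs in the lowest group with a UMI and 4331 in the next, and the part of depth in these values was not tested.

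**Figure D4:**
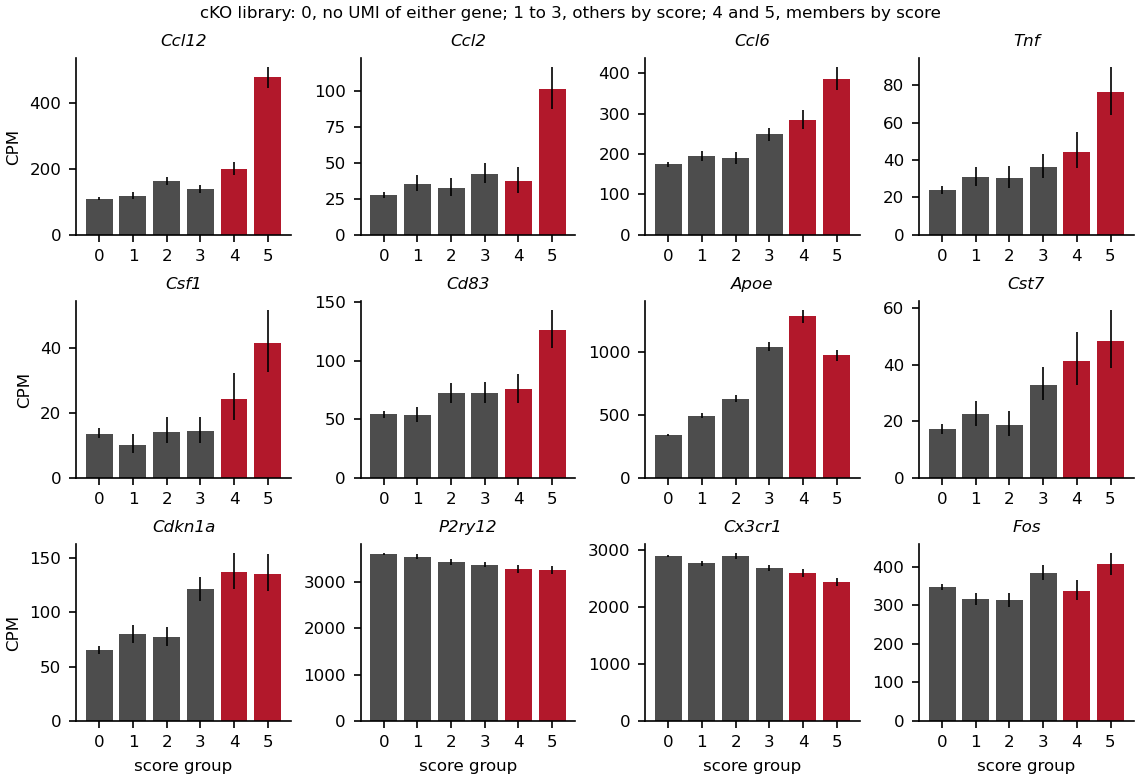
CPM (vertical axes) of 12 genes in 6 groups of cKO cells ordered by the Ccl3 and Ccl4 score: 0, no UMI of either gene; 1 to 3, other cells with rising score; 4 and 5, selected cells (red); bars are summed UMIs with 95% Poisson intervals. Ccl12, Ccl2, Tnf and Cd83 are highest in group 5, Apoe peaks in group 4, and P2ry12 and Cx3cr1 are lowest in group 5.

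The control library was asked whether the same genes accompany Ccl3 and Ccl4 without the deletion. The same rule picked 51 of 511 eligible control cells, with a higher cut-off of 15.8 UMIs per 10000 and 132731 UMIs in all against 1168836 in the other 460 cells. Of the 37 genes, 18 (48.6%) were at least 1.5-fold higher in the picked control cells, against 12.2% of all 6812 genes, and 17 of them also reached 20 CPM in that library. A single UMI in the picked control cells is 7.53 CPM, so sparse genes pass 1.5-fold on few UMIs. Lpl passed with 2 UMIs there, Cst7, Csf1 and A930007I19Rik with 3, Oscp1 with 4 and Rcan1 with 5. The 12.2% was not matched for the level of the genes, so the 2 shares are not alike. The interval lay above 1 for 6 of the 37, beside 165 of all 6812 genes (2.42%). The 6 were Ccl12, Ccl2, Id2, Cxcl10, Ifit3 and Isg15. Cxcl10, Ifit3 and Isg15 rested on only 4, 4 and 6 UMIs in the picked control cells, and 6, 5 and 12 in the others. The intervals take UMIs as independent, and how many control cells held these UMIs was not examined. Without replicates, differences between the libraries were not tested.

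Summed, the other chemokine genes stood higher in the picked cells of both libraries. The ratio was 1.93 (1.63 to 2.28) in the control library, beside 1.88 in the cKO library. Ccl12 alone gave 633 of the summed 1303 CPM in the picked control cells and 218 of 676 CPM in the others. Of 9 chemokine genes measured there 8 were above 1, and Ccl25 was past 1.5-fold lower. Past 1.5-fold higher were 4 of the 9, against 17.6% of all genes measured in the control library. A sparse gene can count as measured there only because it is high in the picked cells. Cxcl10 did so on 4 UMIs, at 30.1 against 5.13 CPM, so the 8 of 9 partly reflects the limit. Ccl12 stood at 633 against 218 CPM in the control library, a ratio of 2.90 (2.24 to 3.73), and Ccl2 at 158 against 47.1 CPM, a ratio of 3.36 (1.93 to 5.65). Id2 stood at 158 against 70.2 CPM, a ratio of 2.26 (1.33 to 3.68), and Cd83 at 97.9 against 49.6 CPM, a ratio of 1.97 (0.992 to 3.64). Ccl6 stood at 181 against 148 CPM, a ratio of 1.22 (0.762 to 1.88). Genes of disease-associated microglia had 19 of 21 measured members above 1 in the control library. Measured here means at least 20 CPM in either control group, which 3 UMIs in the picked cells reach, as for Cst7 and Csf1. Such genes count because they are high there. The share above 1 was 47.7% over the 6812 genes measured in the cKO library, a different set, so the 2 shares are not alike. The summed ratio of the list was 1.15 (1.10 to 1.19), beside 1.14 in the cKO library. Of these 21, 3 passed 1.5-fold, against 17.6% of all genes measured in the control library, and Apoe was past 1.5-fold lower.

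Of the 37 genes, 27 stood above 1 in the control library. The 2 with a control interval below 1 were Apoe and Cd74, and Fos, outside the 37, also stood below 1 there. Others of the 37 below 1, such as Ifitm3 (0.304) and Adamts1 (0.755), had intervals that included 1. Control ratios were not recomputed without the richest cells of each gene. Apoe stood at 226 CPM in the picked control cells and 363 CPM in the others, a ratio of 0.623 (0.415 to 0.903), beside 2.40 in the cKO library. Cd74, the invariant chain of MHC class II, stood at 15.1 against 133 CPM from 2 and 156 UMIs, beside 47.5 against 28.0 CPM in the cKO library. Fos stood at 1258 against 1655 CPM, a ratio of 0.760 (0.645 to 0.891), beside 1.08. Cdkn1a rested on 2 UMIs in the picked control cells and was not resolved at this depth, with a ratio of 0.452 (0.0528 to 1.74).

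**Figure D5:**
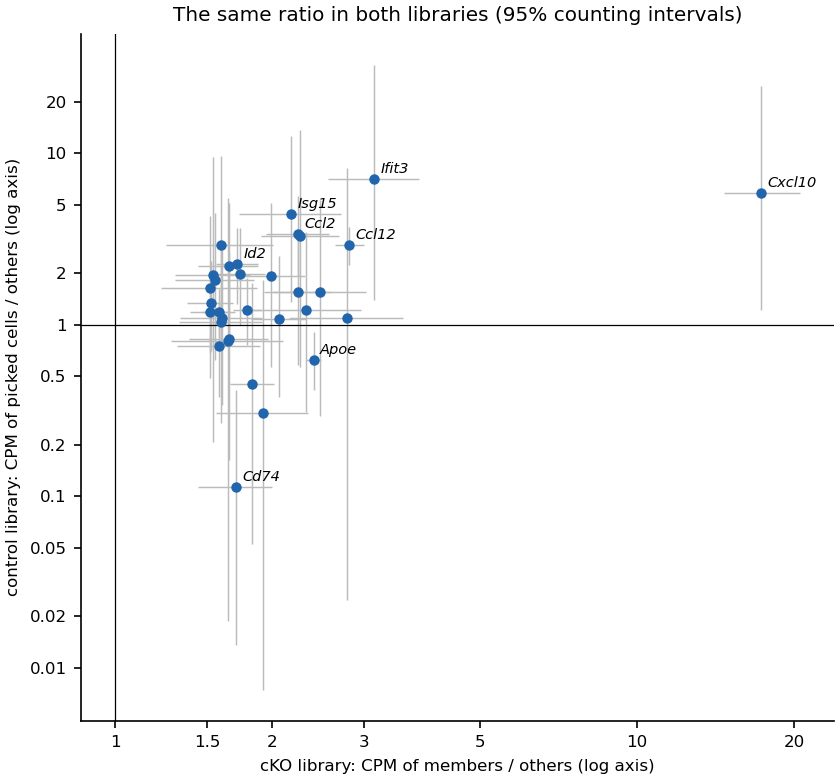
Ratio of CPM in the selected over the other cells in the cKO library (horizontal log axis) and in the control library (vertical log axis) for the named genes at least 1.5-fold higher in the cKO library, with 95% counting intervals. Genes whose control interval excludes 1 are labelled: 6 lie above 1, and Apoe and Cd74 lie below it. Of the 6, Cxcl10, Ifit3 and Isg15 rest on 4 to 6 UMIs in the picked control cells.

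The share of cells above the cKO cut-off describes the ranking score in each library, with 1 library per genotype and no test of a difference. Of 511 eligible control cells 112 (21.9%, Clopper-Pearson interval 18.4 to 25.8%) stood at or above it, and 10.0% of cKO cells, where the rule fixes the share. The interval covers counting error over cells of 1 library. With every cell thinned to 2000 UMIs, the shares were 22.1% and 11.4%. Only 7.70% of control barcodes were eligible against 74.2% of cKO barcodes, and the part of that difference in these shares was not tested. Free RNA adds UMIs to every cell, and its level in either library was not measured here.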

How the data were processed

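The authors deposited whole-number UMI counts for each gene in each barcode, without normalization. Per the file headers the matrices were written by Cell Ranger 6.1.0, and Seurat and mm10 are named in the submitters' processing notes. The bulk count table of the series was not used here. Where a symbol stood on several identifiers, the one with more UMIs was kept. UMIs were summed over the selected and over the other eligible cells and divided by the totals without Ccl3 and Ccl4, as CPM. Ratios of sums have exact conditional binomial 95% intervals, and sums exact Poisson intervals, and both reflect counting error alone. No test was made and no p-value is given, since each genotype has 1 library. The work used Python 3.11.15, NumPy 2.4.6, SciPy 1.17.1 and pandas 2.3.3, and the ratios and intervals were tested on simulated data. Cell types were checked with 12 marker lists of other cell types.

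The text names the 15 highest and 10 lowest genes by the interval bound nearest 1 (without mitochondrial, ribosomal and unnamed gene models), up to 4 genes of each of 21 lists furthest from 1, and a fixed set of microglial, early response and cytokine genes; other list members named beside them, and the 5 cells richest in Cxcl10, were chosen after their values were seen. The selected cells and the lists were chosen with earlier results of these data known. Gene positions are from GENCODE M21 on GRCm38, the assembly also called mm10.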

Additional observations from a re-analysis of the deposited data

How the results depend on the processing

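No paired analysis was possible because no result comes from a test over replicate samples: each genotype has 1 library. The count of 37 higher genes became 77 with the top 5% of cells, 18 with the top 20%, 61 after thinning to 2000 UMIs, 173 at a limit of 5 CPM and 15 at 50 CPM. Of the 37, 33, 18, 23, 37 and 15 remained in these settings. Fewer or more genes and UMIs enter these settings by construction. The count of 8 lower genes became 50, 2, 84, 125 and 1 in the same settings, 3 with Ccl4 alone, 17 without cells that held 2 markers of another cell type, 14 without the richest 5 and 45 cells of each gene, and 14 without the top 10% by interferon score. The 17 genes higher in both libraries became 7 with the top 20%, 69 at 5 CPM, 6 at 50 CPM, 10 without the top 10% by interferon score and 9 with a minimum of 1000 UMIs in the control library. At 4000 UMIs the control library gave no value. The NF-kB count of 3 became 1 with the top 20%. The cytokine count of 2 became 5 at 5 CPM and 1 at 50 CPM. The AP-1 and Egr count of 0 became 2 at 5 CPM, and 1 with the top 5%, after thinning, with means over cells, without cells of other marker lists, with centred ratios, without the richest cells and without the interferon top 10%. The chemokine count stayed between 4 and 7 and the homeostatic count at 0 in every setting run. Of 585 recomputed ratios of named genes past 1.5-fold, 583 stayed on the same side of 1; Cck fell to 0.677 with the top 5% and Isg15 to 0.948 without the interferon top 10%, whose score counts Isg15 itself. The other causes were not tested. The settings that leave out the richest cells, the Cxcl10 cells or the interferon-high cells, that lower the minimum to 1000 UMIs, or that thin cells before the control share is taken were chosen after seeing the data.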
